A study of Mus musculus with 12 samples.

Results

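The genes described here drive or carry out cell division: 55 cell cycle genes, chosen by name from published roles in S phase, G2 and mitosis, of 18992 gene identifiers in the deposited tables. They comprise 22 S phase genes, 30 G2/M genes and 3 replication-dependent histone genes, and all 55 were found in every table. Single cells were sequenced after sorting T cells with PD-1, CD44 and CD8 on their surface (PD-1+CD44+CD8+) from female NZB/W F1 mice, which develop lupus nephritis with age. There were 3 groups, named 12W spleen, 28W spleen and 28W kidney for the age of the mice in weeks and the organ, and no group had a treatment in its labels. The labels list 4 samples a group, told apart only by a running number, and do not say whether these came from separate mice. Each group's table pools them with no map from cells to samples, so each group was 1 library. No test between groups was possible and no p-value is given. Intervals are exact 95% Poisson intervals for levels and exact 95% binomial intervals for shares and for ratios of single genes. They cover counting error only, not the spread between mice. The range beside a set median gives the medians of its genes' lower and upper limits, and is not an interval of that median. The titles set the groups, because the age given for the 28W spleen samples in another field is 12 weeks. The number of mice is not stated, and collagenase was used to release the kidney cells but is not mentioned for the spleen.

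A T cell that divides copies its DNA in S phase and separates the copies in mitosis, with the gap phase G2 between them. In late G1, cyclin E with its kinase releases E2F transcription factors from the Rb proteins, and E2F switches on the genes for loading the MCM helicase at origins, for the replication fork and for making deoxynucleotides. Histone genes are switched on in S phase, when new DNA is packed into nucleosomes. Later, cyclins A and B with Cdk1, the Aurora and Polo kinases, kinesin motors and centromere proteins build the spindle, and Cdc20 and Ube2c serve the anaphase-promoting complex that ends mitosis. Many G2/M promoters are bound by MuvB complexes with B-Myb or FoxM1 through an element called CHR. Activated CD8+ T cells are among the fastest dividing cells of the body, and most resting memory cells are outside the cycle.

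The promoters of both gene sets hold different short words, so those of 6 members on which the results turn are shown. RefSeq windows on GRCm38.p6, from 250 bases before to 50 after the start site, were at hand for 44 of the 55 members. Each sequence runs 5′ to 3′ along the gene, and capitals mark the E2F words TTTCCCGC, TTTCGCGC, TTTGCCGC or TTTGGCGC and the CHR words TTTGAA or TTCGAA, searched on both strands. Where words overlapped, the run of capitals covers both.
Mcm5 promoter, chr8:75109259-75109558, plus strand: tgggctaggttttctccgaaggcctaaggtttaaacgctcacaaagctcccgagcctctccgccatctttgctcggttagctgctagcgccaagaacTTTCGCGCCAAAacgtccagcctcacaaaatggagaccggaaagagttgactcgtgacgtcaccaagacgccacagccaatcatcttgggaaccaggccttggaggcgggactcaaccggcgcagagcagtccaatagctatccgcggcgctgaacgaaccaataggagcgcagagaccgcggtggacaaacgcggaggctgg
Mcm6 promoter, chr1:128359656-128359955, minus strand: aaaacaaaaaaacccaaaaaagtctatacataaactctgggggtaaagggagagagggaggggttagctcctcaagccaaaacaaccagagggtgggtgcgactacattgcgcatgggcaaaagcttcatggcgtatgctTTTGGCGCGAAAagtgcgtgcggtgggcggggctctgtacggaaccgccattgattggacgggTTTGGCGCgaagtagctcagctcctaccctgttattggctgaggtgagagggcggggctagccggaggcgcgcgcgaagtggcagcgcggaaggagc
Pclaf promoter, chr9:65890073-65890372, plus strand: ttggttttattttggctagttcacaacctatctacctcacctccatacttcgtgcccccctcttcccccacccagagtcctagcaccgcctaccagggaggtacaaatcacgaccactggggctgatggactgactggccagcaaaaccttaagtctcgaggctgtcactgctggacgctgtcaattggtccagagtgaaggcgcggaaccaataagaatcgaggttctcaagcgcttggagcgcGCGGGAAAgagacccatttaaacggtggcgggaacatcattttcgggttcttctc
Ccnb2 promoter, chr9:70421505-70421804, minus strand: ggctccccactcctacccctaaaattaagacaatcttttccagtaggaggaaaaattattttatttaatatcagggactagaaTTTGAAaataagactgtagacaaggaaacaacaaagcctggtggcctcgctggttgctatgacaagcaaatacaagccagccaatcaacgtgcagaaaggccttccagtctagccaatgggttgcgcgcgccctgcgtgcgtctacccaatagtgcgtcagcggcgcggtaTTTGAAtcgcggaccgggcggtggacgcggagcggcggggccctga
Cenpf promoter, chr1:189688037-189688336, minus strand: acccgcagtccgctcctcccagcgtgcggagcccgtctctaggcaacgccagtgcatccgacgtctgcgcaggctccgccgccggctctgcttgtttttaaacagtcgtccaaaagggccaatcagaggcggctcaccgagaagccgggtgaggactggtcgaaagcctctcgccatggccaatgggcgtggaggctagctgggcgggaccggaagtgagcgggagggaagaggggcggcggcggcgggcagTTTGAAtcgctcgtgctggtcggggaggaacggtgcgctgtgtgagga
Mki67 promoter, chr7:135716330-135716629, minus strand: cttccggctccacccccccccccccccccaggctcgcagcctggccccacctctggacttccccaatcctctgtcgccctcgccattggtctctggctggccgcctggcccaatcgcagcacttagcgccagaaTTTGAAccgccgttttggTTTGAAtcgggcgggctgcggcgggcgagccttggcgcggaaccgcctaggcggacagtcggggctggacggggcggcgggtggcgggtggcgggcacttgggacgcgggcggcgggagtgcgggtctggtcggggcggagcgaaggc
An E2F word was in the windows of 10 of 19 S phase genes (52.6%) and in 1 of 25 G2/M genes (4%), that of Cdk1, against 704 of 27025 genes in all (2.61%). A CHR word was in 18 of 25 G2/M windows (72%) and 3 of 19 S phase windows (15.8%), against 21.7% of all genes. CCAAT, the word bound by NF-Y, was in 22 of 25 G2/M windows (88%) and 11 of 19 S phase windows (57.9%), against 41.1% of all genes. Mcm6, a helicase subunit, held 3 E2F words, and Mcm5 held 2 that overlap. Mki67, which coats mitotic chromosomes, and Ccnb2, a B cyclin, held 2 CHR words each. A word in a window is a description and does not show that a factor bound there.

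The libraries held 6894, 6481 and 7135 cells in 10, 11 and 12 clusters, made by the authors within each library, with 34742303, 32023473 and 29937384 unique molecular identifiers (UMIs, 1 for each captured transcript). Levels are given as UMIs per 1000000 UMIs of the cluster or library (CPM). From 52 to 66 cell barcodes were shared by a pair of libraries. The T cell genes Cd8a and Cd3e were present in every cluster on which results turn, at 445 to 934 CPM for Cd8a and 400.0 to 1729 CPM for Cd3e. Both come from a list of 7 CD8 T cell and sort genes. Only 1 of the 7 exceeded its library level in 12W spleen clusters 7 and 10, 28W spleen 6 and 28W kidney 2 and 11. It was 5 in 12W spleen cluster 8, 7 in 28W spleen cluster 11 and 6 in 28W kidney cluster 1. Red cell, B cell, myeloid, neutrophil or tubule genes were raised in 8 of the 33 clusters. The authors' clusters were built on expression that includes these 55 genes, so a difference between clusters of a library is a description.

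In each library most G2/M genes had over 50% of their UMIs in 1 small cluster of cells with many UMIs. That cluster, called here the cycling cluster, was cluster 10 in 12W spleen, cluster 6 in 28W spleen and cluster 11 in 28W kidney. It held 210 cells of 12W spleen (3.05%, 2.65 to 3.48), 528 of 28W spleen (8.15%, 7.49 to 8.84) and 359 of 28W kidney (5.03%, 4.54 to 5.56). Its cells carried 14345, 12209 and 11404 UMIs each, and it held 8.67%, 20.1% and 13.7% of all UMIs of the libraries. The median G2/M gene had 77.4%, 82.8% and 85.2% of its UMIs there (12W spleen, 28W spleen, 28W kidney, the order kept below). For S phase genes the median was 37.5%, 68.9% and 45.7%. The median share was therefore lower for S phase genes in every library. Over the summed UMIs of each set the cluster held 37.4%, 63.2% and 52.8% of S phase and 42.1%, 61.0% and 69.9% of G2/M UMIs, so in 28W spleen the sums gave the other order.

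**Figure D1:**
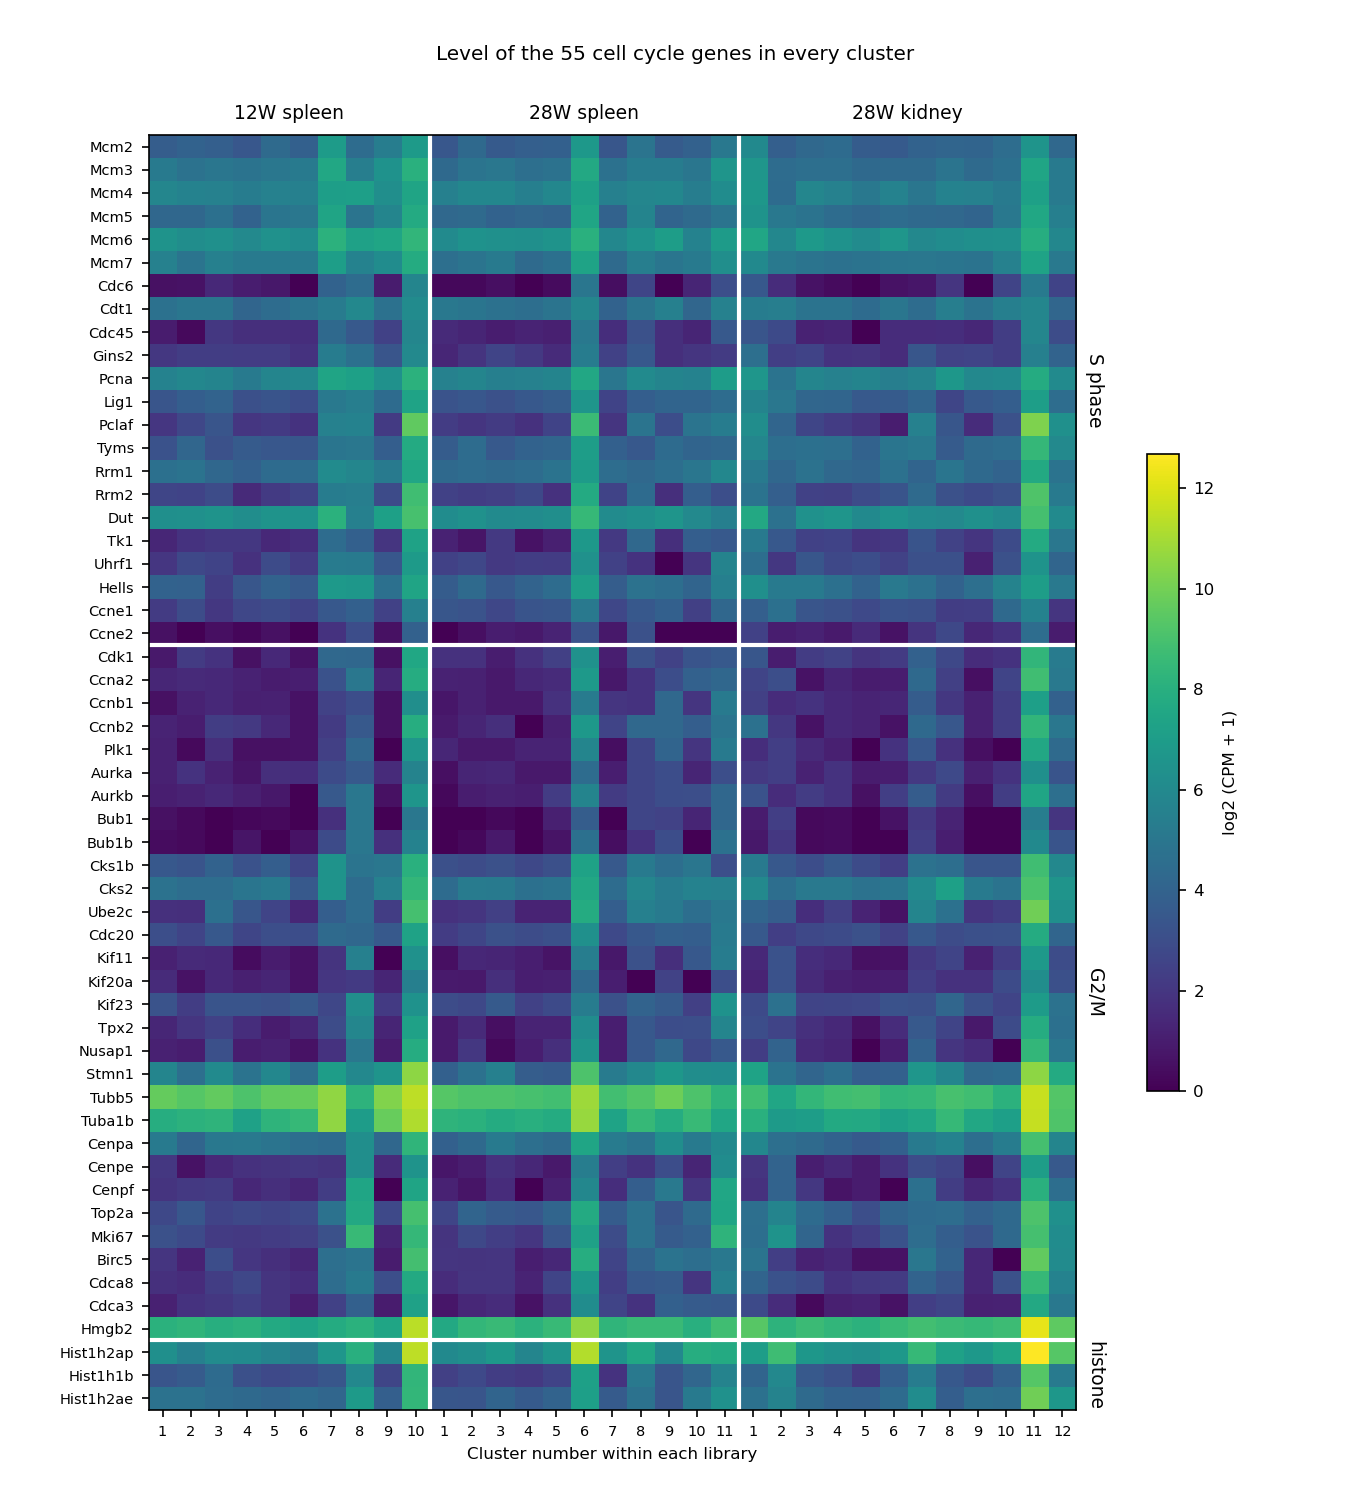
Heat map of log2 (CPM + 1) for the 55 genes (rows, by set) in the 33 clusters (columns, by library and cluster number). Cluster 10 of 12W spleen, cluster 6 of 28W spleen and cluster 11 of 28W kidney are bright over all sets, while cluster 7 of 12W spleen and cluster 1 of 28W kidney are bright mainly over the S phase rows.

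Among S phase genes, the 8 of the replication fork and of nucleotide supply had medians of 55.2%, 70.5% and 60.7%, and ranged widely. Pclaf, which binds the sliding clamp PCNA, had 86.9%, 95.3% and 88.6% of its UMIs in the cycling clusters, the highest of the 22 genes in each. Rrm2, the regulated subunit of ribonucleotide reductase, had 80.9%, 91.9% and 88.2%, and Tk1, the thymidine kinase, 73.3%, 92.1% and 74.5%. Pcna, the clamp itself, had 27.5%, 50.3% and 34.7%, the lowest of the 8. Origin licensing and helicase genes had lower medians, 28.3%, 66.0% and 41.5% over 10 genes. Cdt1, which loads the MCM helicase, was the least concentrated S phase gene in each library, at 19.8%, 34.1% and 21.8%. Mcm6 was measured outside the cycling cluster too: over the clusters other than the cycling and the mitochondria-rich one, it ranged from 62.4 to 285, from 49.1 to 133 and from 56.8 to 184 CPM in the same order. Cdc6, the other loading factor, went from 0 to 15.0, 0 to 5.21 and 0 to 10.4 CPM over the same clusters.

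Genes of the mitotic kinases and cyclins were close to absent from most clusters. Ccna2, the A cyclin of S phase and G2, had 88.7%, 93.4% and 93.6% of its UMIs in the cycling clusters, and a median of 1.53, 1.68 and 2.86 CPM over the remaining clusters of the 3 libraries (12W spleen, 28W spleen, 28W kidney). Plk1, the Polo kinase, had medians of 0.52, 1.42 and 2.02 CPM there. Outside the cycling cluster, 16, 18 and 13 of the 30 G2/M genes were under 5 CPM, against 3, 8 and 3 of the 22 S phase genes. The tubulins Tubb5 and Tuba1b, the chromatin protein Hmgb2 and the Cdk-binding Cks2 were among the least concentrated G2/M genes. Tubb5 had 23.0%, 45.1% and 54.7% of its UMIs in the cycling clusters, the lowest of the 30 genes in each library. Hmgb2 had 49.9%, 54.5% and 63.3%, and Cks2 had 46.1%, 61.8% and 61.7%. Tubulin and histone paralogs share much of their sequence, so the split of reads between copies is uncertain for Tubb5, Tuba1b, Hist1h2ap and Hist1h2ae.

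**Figure D2:**
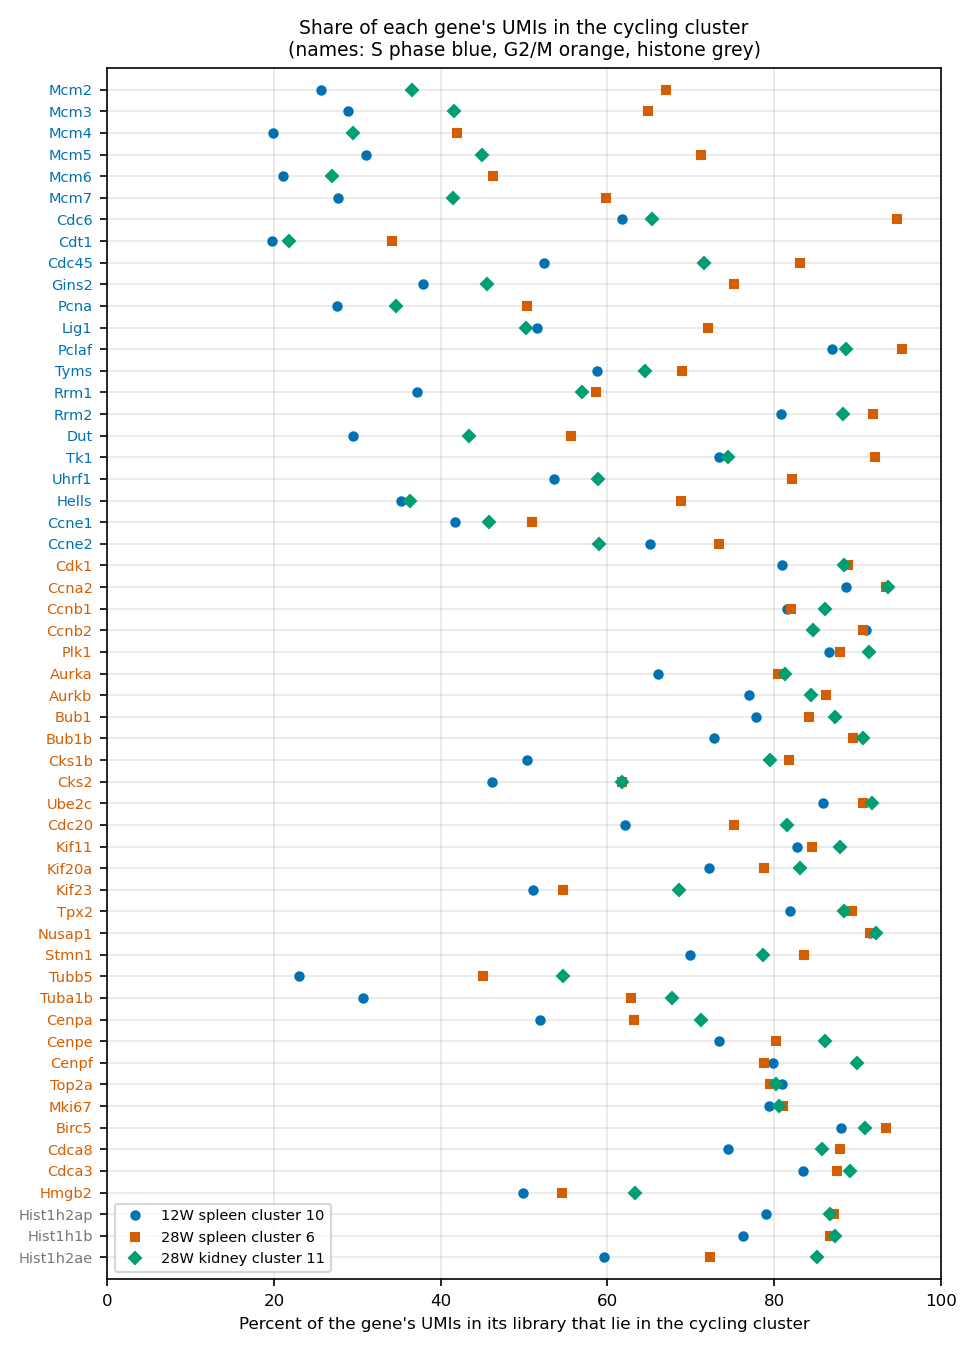
Percent of each gene's UMIs that lay in the cycling cluster of its library (x axis), with 1 row a gene and 1 symbol a library. G2/M genes lie mostly above 70%, S phase genes spread from 19.8% to 95.3%, and the 28W spleen symbols of the S phase genes lie to the right of the 12W spleen ones.

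Against the other cells of their library, with 10 CPM added to both levels, the cycling clusters were at least 2-fold higher for 22, 20 and 21 of 22 S phase genes and for all 30 G2/M genes each. Of all genes with at least 20 UMIs, 3.26%, 4.38% and 4.02% were that much higher in 12W spleen cluster 10, 28W spleen cluster 6 and 28W kidney cluster 11. The clusters were found from these genes among others, so nothing is read from these counts. Sums per cell are averages over a cluster, and a few abundant genes weigh heavily in them. In 12W spleen cluster 10 Tubb5, Tuba1b, Hmgb2 and Stmn1 gave 8385, 6894, 7861 and 4405 of 43143 G2/M UMIs. A cell of 12W spleen cluster 10 carried 66.7 S phase UMIs, 205 G2/M UMIs and 48.9 histone UMIs on average. The values were 38.1, 98.004 and 32.6 in 28W spleen cluster 6 and 55.9, 235 and 93.8 in 28W kidney cluster 11. A cell of 28W spleen cluster 6 thus carried the fewest of each kind, and one of the kidney cluster the most G2/M and histone UMIs.

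S phase genes were also high, and most G2/M genes much less so, in cluster 7 of 12W spleen. Its 372 cells (5.40%, 4.87 to 5.96) held 13406 UMIs each, near those of the cycling cluster. Mcm6 was at 285 CPM (271 to 301) there, against 331 (311 to 352) in cycling cluster 10 and 86.2 in the rest of the library. Mcm3, also a helicase subunit, was at 197 CPM against 35.5 in the rest, and Dut, which clears dUTP, at 278 against 85.7. Mki67 was at 7.82 CPM (5.56 to 10.7) in cluster 7 and 8.79 in the rest, and Ccnb2 at 3.61 and 2.02. Mcm2, a helicase subunit too, was at 123 CPM in cluster 7 and 118 in cluster 10. It was the 1 S phase gene of 12W spleen whose level was highest outside the cycling cluster. Some helicase and loading genes were further below the cycling cluster: Mcm7 was at 137 CPM in cluster 7 and 225 in cluster 10, and Cdc6 at 15.0 and 54.1.

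With 10 CPM added, 18 of 22 S phase genes were at least 2-fold higher in 12W spleen cluster 7 than in the rest without cycling cluster 10, and 8 of 30 G2/M genes were. Of all genes, 7.59% were that much higher. By any amount, 24 of 30 G2/M genes were above the rest, 21 with intervals above 0, and Mki67 was among the 6 below it. The median log2 ratio was 1.53 (1.41 to 1.65) over the S phase genes, 0.44 (0.24 to 0.65) over the G2/M genes and -0.10 over all 11350 genes. The 8 G2/M genes were Tuba1b, Cks1b, Cks2, Birc5, Stmn1, Cdk1, Cdca8 and Tubb5 at 2.33, 2.22, 1.41, 1.39, 1.35, 1.29, 1.22 and 1.001 in log2. Of the 3 histone genes none reached 2-fold, with a median of -0.016. Genes of growth and activation, chosen after their values were seen, were high in the same cluster: the nucleolar gene Ncl at 1764 CPM against 492 over the library, the polyamine gene Srm at 678 against 142, the chemokine gene Xcl1 at 2088 against 366 and the co-stimulatory receptor gene Tnfrsf9 at 523 against 99.7. In cycling cluster 10 all 4 were below the library level, with Ncl at 352, Srm at 43.2, Xcl1 at 66.4 and Tnfrsf9 at 24.9 CPM. The library level includes cluster 7 itself. Ncl was at 179 to 265 CPM in clusters 1 to 6, below cluster 10, while Srm, Xcl1 and Tnfrsf9 of cluster 10 lay within the range of those clusters. Nme1, looked at with them, went the other way, at 547 CPM in cluster 7, 231 in cluster 10 and 191 over the library. Cluster 9 of 12W spleen, with 280 cells, went the same way by less in its medians, but not in its sums. Its median S phase gene was at 22.4 CPM, against 43.1 in cluster 7 and 9.74 to 14.6 in clusters 1 to 6. Its median G2/M gene was at 1.71 CPM, against 8.02 in cluster 7 and 1.61 to 3.99 in clusters 1 to 6. S phase genes summed to 898 CPM there, 2008 in cluster 7 and 380 to 497 in clusters 1 to 6. G2/M sums were raised too, at 2507 CPM in cluster 9 and 3842 in cluster 7, against 1154 to 1597 in clusters 1 to 6. In cluster 9 Ncl, Srm and Tnfrsf9 were at 684, 231 and 166 CPM, above the library, and Xcl1 at 314, below it. The part of UMIs per cell in the levels of cluster 7 was not tested.

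A cluster of the 28W kidney, cluster 1 with 900 cells (12.6%, 11.9 to 13.4), showed the same sets apart at a lower level. There 11 of 22 S phase genes and 3 of 30 G2/M genes were at least 2-fold higher than in the rest without cycling cluster 11, where 0.35% of all genes were. The median log2 ratio was 1.02 (0.85 to 1.18) over the S phase genes and 0.18 (0.027 to 0.35) over the G2/M genes. Mcm5 was at 89.5 CPM (81.4 to 98.04) against 23.1 in the rest, and Pclaf at 74.2 (66.9 to 82.0) against 12.1. The 3 G2/M genes were Stmn1, which destabilises microtubules, Ccnb2 and the survivin gene Birc5, at 1.84, 1.23 and 1.02 in log2. Xcl1 and Tnfrsf9 were at 130 and 22.7 CPM in this cluster, against 145 and 17.2 over the kidney library. Its cells held 5677 UMIs each, fewer than those of 12W spleen cluster 7.

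No cluster of 28W spleen showed the S phase genes apart in this way. Outside cycling cluster 6, the highest level of Mcm6 among clusters other than the mitochondria-rich one was 133 CPM, and the highest of Dut was 96.1 CPM. Cluster 6 itself held Xcl1 at 584 CPM and Tnfrsf9 at 153 CPM, against 66.4 and 24.9 in 12W spleen cluster 10 and 68.4 and 22.2 in 28W kidney cluster 11. Whether cluster 6 joins cells of both kinds cannot be told from cluster means.

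**Figure D3:**
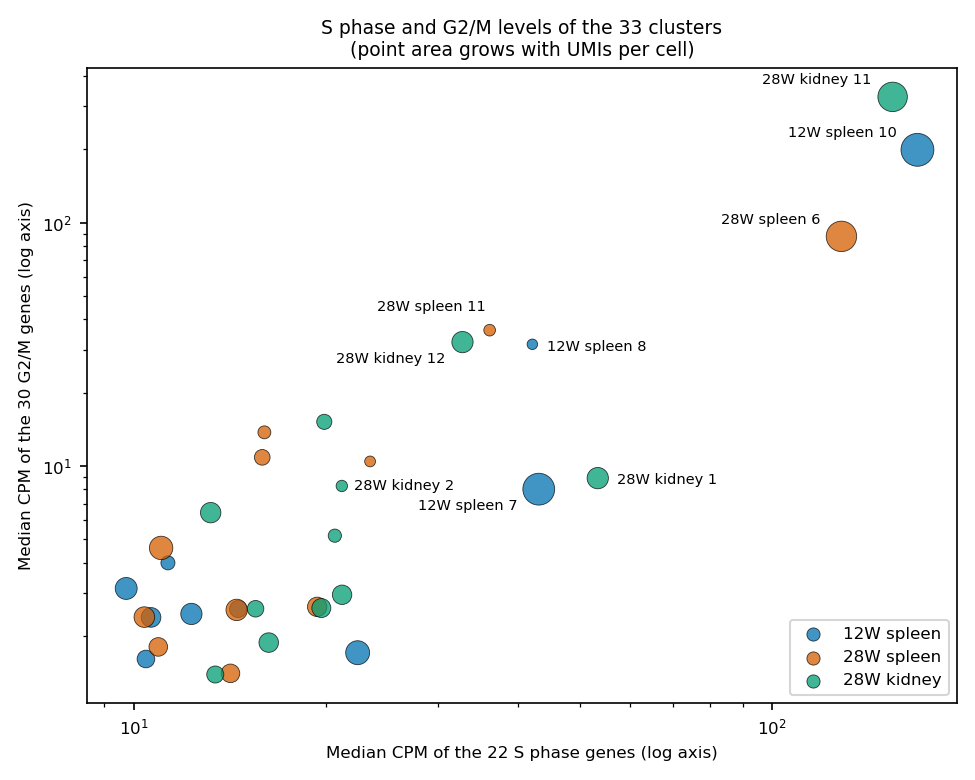
Median CPM of the 22 S phase genes (x axis, log) against that of the 30 G2/M genes (y axis, log) in the 33 clusters, with point area set by UMIs per cell. The 3 cycling clusters lie at the upper right, 12W spleen 7 and 28W kidney 1 lie to the right at 8.02 and 8.91 CPM of G2/M, and the small points 12W spleen 8 and 28W spleen 11 hold 31.6 and 36.1 CPM of G2/M with few UMIs per cell.

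Some G2/M genes had their highest level outside the cycling cluster, in a cluster of cells with little RNA. Cluster 8 of 12W spleen, cluster 11 of 28W spleen and cluster 2 of 28W kidney had 928, 1288 and 1200 UMIs per cell, and 8.98%, 6.64% and 10.8% of their UMIs were mitochondrial, the highest share of their library. Mki67 was at 376 CPM (308 to 454) in 12W spleen cluster 8 and 351 (330.0 to 373) in cycling cluster 10. In 28W spleen it was at 307 (245 to 380) in cluster 11 and 153 (144 to 163) in cycling cluster 6, and the intervals do not meet. In 28W kidney it was at 89.9 (72.02 to 111) in cluster 2 and 484 (463 to 506) in cycling cluster 11. The level was thus as high as or higher than in the cycling cluster in both spleens, and lower in the kidney.

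In UMIs per cell the same gene gave another order. A cell of 12W spleen cluster 8 held 0.35 Mki67 UMIs and a cell of cycling cluster 10 held 5.03, and in 28W spleen the values were 0.40 in cluster 11 and 1.87 in cycling cluster 6. Cenpf, a kinetochore gene, was at 172 CPM in 12W spleen cluster 8 and 170.3 in cycling cluster 10, and at 181 against 58.2 in 28W spleen. In contrast Birc5 was at 28.1 CPM in cluster 8 against 483 in cluster 10, and Ube2c, the ubiquitin-conjugating enzyme of mitotic exit, at 21.1 against 485. Of the 30 G2/M genes, 3 were highest in the low-RNA cluster of 12W spleen (Mki67, Cenpf and Bub1) and 6 in that of 28W spleen (Mki67, Cenpf, Cenpe, Kif23, Bub1 and Bub1b). In 28W kidney none was, and no S phase gene was in any library. The places of Bub1 and Bub1b rest on too few UMIs to set an order. Bub1 had 9 UMIs in 12W spleen cluster 8, at 31.6 CPM against 31.5 in cluster 10, and 5 UMIs in 28W spleen cluster 11. Bub1b had 7 UMIs in 28W spleen cluster 11, at 25.3 CPM against 25.1 in cluster 6.

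Among G2/M genes, the level kept in the low-RNA clusters went with transcript length. Across the 30 G2/M genes, the Pearson correlation of log10 transcript length with the log2 ratio of low-RNA to cycling cluster was 0.68, 0.67 and 0.48 in the 3 libraries. Length was that of the longest GENCODE M21 transcript, 10061 bases for Mki67 and 11130 for Cenpf against 2191 for Ube2c and 1060 for Stmn1. The same relation held across all protein-coding genes, for the low-RNA cluster against other cells without the cycling cluster: r was 0.63 over 7977 genes, 0.60 over 7463 and 0.56 over 7797. These correlations are across genes of the same libraries, and genes are not independent replicates. Among G2/M genes of 3000 bases or more, the median log2 ratio of low-RNA to cycling cluster was -0.76, -0.0086 and -2.78, against -2.76, -1.76 and -4.10 for shorter ones. Over all 55 genes the correlation was lower, 0.55, 0.52 and 0.36, and S phase genes of 28W spleen had the other order, -1.23 for long and -1.04 for shorter ones. Malat1, a nuclear long noncoding RNA looked at after its values were seen, was at 18143 CPM in cluster 8 against 2811 over the 12W spleen library. The part of RNA quality in these levels was not tested.

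**Figure D4:**
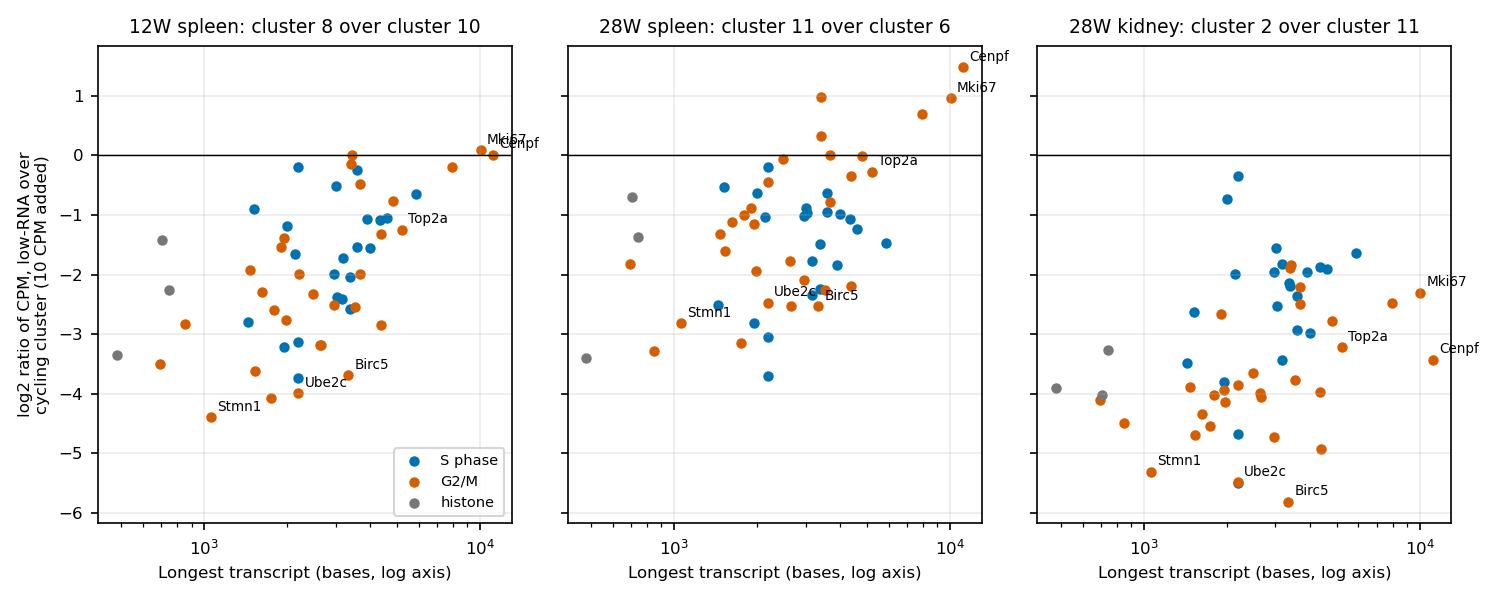
Log2 ratio of CPM in the low-RNA over the cycling cluster (y axis, 10 CPM added) against longest transcript length in bases (x axis, log) for the 55 genes in each library. In both spleens Mki67 and Cenpf, with 10061 and 11130 bases, lie at or above 0 and Stmn1, with 1060 bases, near the bottom, and in 28W kidney every gene lies below 0.

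Against other cells without the cycling cluster, 16 of 30 G2/M genes were at least 2-fold higher in 12W spleen cluster 8, 20 of 30 in 28W spleen cluster 11 and 1 of 30 in 28W kidney cluster 2. For S phase genes the counts were 7, 7 and 0 of 22. The share of all genes called was itself large, 28.1%, 21.5% and 5.54%. The S phase counts and the kidney counts were near that share, so nothing is read from them, and the G2/M counts of the spleens were above it. Red cell genes were raised in kidney cluster 2, at 2147 CPM in sum against 323 over the kidney library.

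The cycling clusters differed from each other more in G2/M genes than in S phase genes. In 28W kidney cluster 11 the median log2 ratio to 28W spleen cluster 6 was 1.51 (1.36 to 1.68) over the G2/M genes, 28 of 30 being at least 2-fold higher, and 0.19 (0.032 to 0.40) over the S phase genes. Of 9996 genes tested 3.68% were that much higher, and the median of all was 0.051. Ube2c was at 993 CPM (963 to 1024) in the kidney cluster, 226 (214 to 237) in 28W spleen cluster 6 and 485 (460.1 to 510) in 12W spleen cluster 10. Cdk1, the mitotic kinase, was at 328 (311 to 346), 85.8 (78.8 to 93.2) and 188 (172 to 204). Origin licensing and helicase genes were not higher in the kidney cluster, with a median of -0.0068 against 28W spleen cluster 6 and -0.35 against 12W spleen cluster 10, where all 10 were lower. The G2/M median against 12W spleen cluster 10 was 0.56 (0.39 to 0.71), with all 30 genes higher. Of 9504 genes tested in that pair 5540 were higher and 3964 lower. Hbb-bs, a haemoglobin gene, was at 1116 CPM in the kidney cluster, against 1.55 in 28W spleen cluster 6 and 2.66 in 12W spleen cluster 10, and the part of red cell RNA was not tested.

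Every one of the 55 genes was lower in 28W spleen cluster 6 than in 12W spleen cluster 10, as were 4947 of 9837 genes tested. The median log2 ratio was -0.48 over the S phase genes, -0.92 over the G2/M genes and -1.10 over the histone genes. This order changed when clusters were pooled. Adding cluster 7 lowers the 12W spleen G2/M level by itself, since Mki67 was at 7.82 CPM there and 351 in cluster 10. With clusters 7 and 10 of 12W spleen pooled there were 582 cells, against the 528 of 28W spleen cluster 6. The S phase and G2/M medians were then 0.026 (-0.10 to 0.22) and 0.15 (-0.0054 to 0.31). Of the G2/M genes 24 of 30 were higher, as were 4852 of 10265 genes tested. With clusters 1 and 11 of 28W kidney pooled, 1259 cells, the G2/M median against 28W spleen cluster 6 fell to 0.52 (0.38 to 0.65). There 28 of 30 G2/M genes were higher, as were 5871 of 10444 genes tested, and the S phase median was -0.20. Cluster numbers are not matched between libraries, so whole libraries were compared next.

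Between spleens of 28 and 12 weeks the cell cycle genes differed little. Levels over a whole library do not tell more cells of a kind from more transcripts per cell. With 1 CPM added, none of the 22 S phase or 30 G2/M genes was at least 2-fold higher or lower at 28 weeks, and of 12412 genes tested 1.84% were higher and 0.935% lower by that much. The median log2 ratio was -0.044 (-0.15 to 0.050) over the S phase genes, 8 higher and 14 lower, and -0.016 (-0.15 to 0.14) over the G2/M genes, 13 higher and 17 lower. Of all 12412 genes 4664 were higher and 7748 lower, with a median of -0.082. The counts of higher and lower genes in both sets were near that share, so nothing is read from them. Mki67 had 38.3 CPM at 12 and 38.0 CPM at 28 weeks, and Top2a, the topoisomerase of mitotic chromosomes, had 53.2 and 54.6.

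Origin licensing and helicase genes were lower at 28 weeks in 9 of 10 cases, with a median log2 ratio of -0.25 (-0.40 to -0.16). Of all 12412 genes tested 7748 were lower. Gins2, part of the active helicase, went from 14.3 CPM at 12 weeks to 10.4 at 28 weeks, a ratio of -0.42 (-0.61 to -0.23) and the lowest of the S phase genes. Mcm7 was at 70.7 and 54.99 (-0.36) and Mcm3 at 78.2 and 62.4 (-0.32). The highest S phase ratios were those of the cyclin E1 gene Ccne1 at 9.33 and 13.2 CPM (0.46, 0.27 to 0.66), Tk1 at 18.7 and 23.8 (0.34) and the thymidylate synthase gene Tyms at 31.2 and 38.7 (0.30). Each of these 6 intervals kept clear of 0, and each ratio was below 2-fold. Without the cycling clusters the S phase median fell to -0.90 and 18 of 22 genes were lower at 28 weeks, and cluster 7 of 12W spleen was then among the cells compared.

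The lowest G2/M ratios were those of Stmn1, from 181 CPM at 12 weeks to 137 at 28 weeks (-0.40, -0.46 to -0.35), Tubb5 at 1049 and 800.4 (-0.39) and Cenpf at 18.5 and 14.9 (-0.30). The highest were Hmgb2 at 453 and 557 (0.30, 0.27 to 0.33), Plk1 at 9.90 and 12.1 (0.27) and Ccnb1, a B cyclin, at 7.97 and 9.37 (0.21, -0.0070 to 0.42). The interval of Ccnb1 took in 0. The histone genes moved in both directions: Hist1h2ap was at 301 and 550 CPM (0.86, 0.83 to 0.90), Hist1h1b at 37.0 and 34.1 (-0.11) and Hist1h2ae at 48.7 and 39.3 (-0.30).

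**Figure D5:**
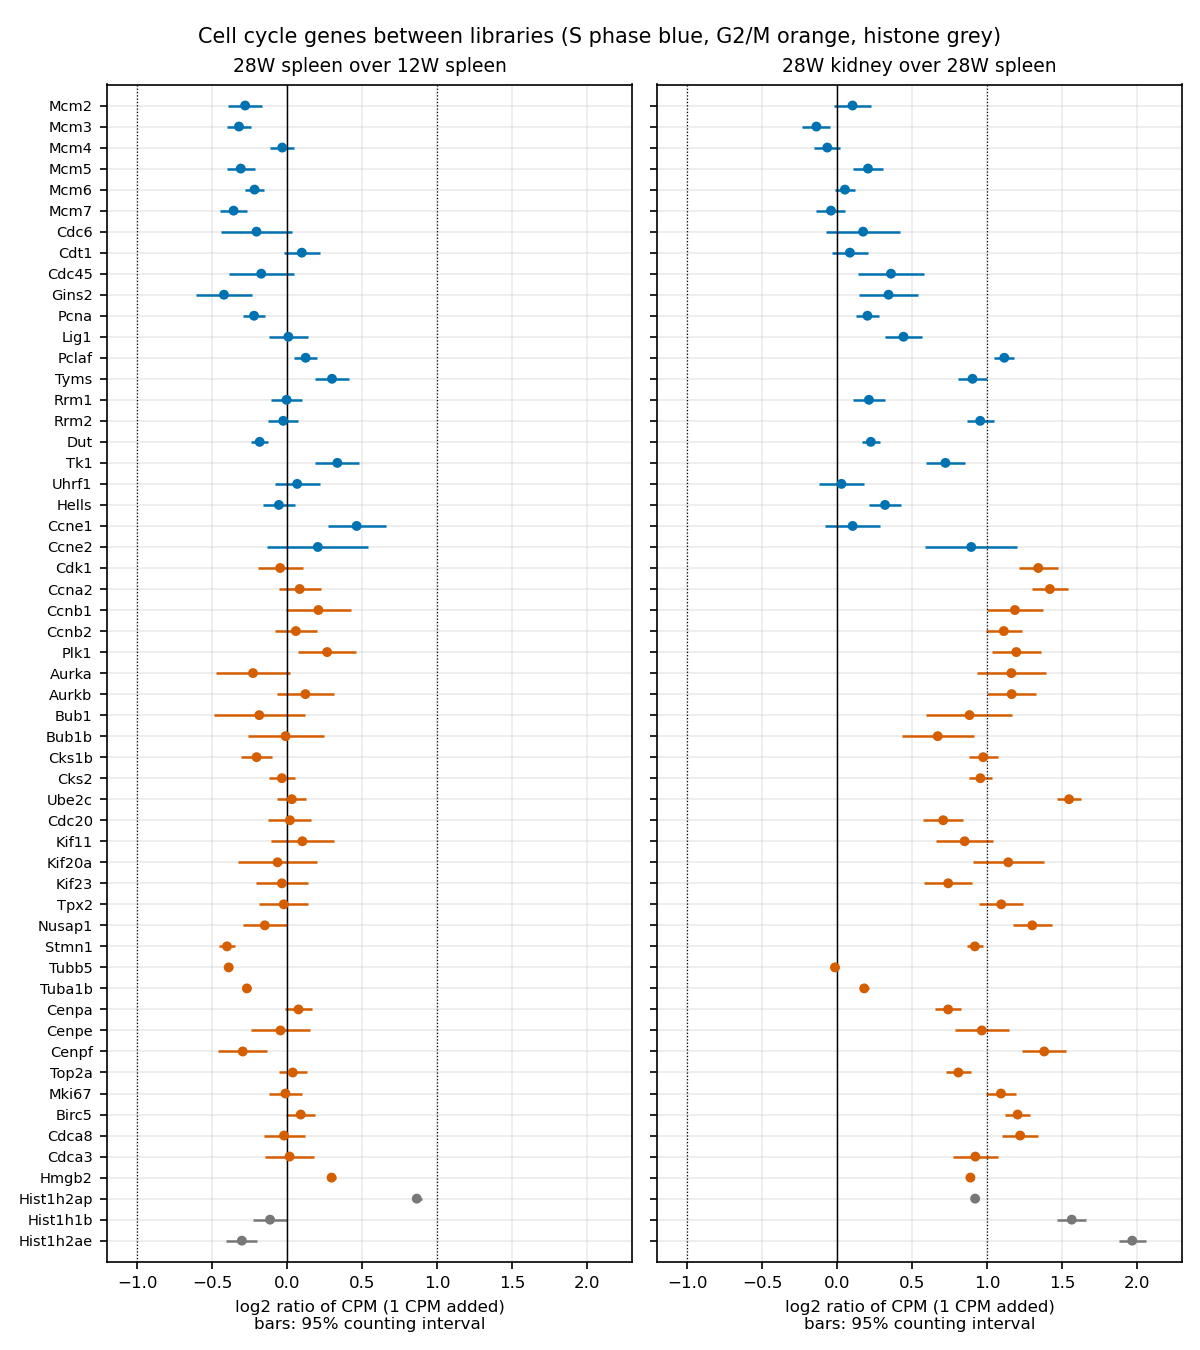
Log2 ratio of CPM (x axis, 1 CPM added, bars the 95% counting interval) for the 55 genes between 28W and 12W spleen (left) and between 28W kidney and 28W spleen (right), with dotted lines at 2-fold. On the left all genes lie within 2-fold, and on the right 29 of 30 G2/M genes lie above 0, most near 1, while most helicase genes lie near 0.

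Between 28W kidney and 28W spleen the G2/M and histone genes differed more than the S phase genes. The G2/M genes were higher in kidney for 29 of 30 genes and at least 2-fold higher for 15, with a median log2 ratio of 1.03 (0.89 to 1.18). Of 13189 genes tested 8.77% were at least 2-fold higher in kidney and 1.23% lower, and the median of all genes was 0.11. Ube2c was at 50.1 CPM in spleen and 148 in kidney, 2.96-fold higher (2.80 to 3.14). Ccna2 was at 23.7 and 65.1, 2.74-fold higher (2.52 to 2.99), and Cenpf at 14.9 and 40.3, 2.71-fold higher (2.44 to 3.02). These were the highest 3, and Mki67 was at 38.0 and 82.2, 2.16-fold higher. The lowest 3 were Tubb5 at 800.4 and 792 (log2 -0.015, -0.040 to 0.011), Tuba1b at 537 and 609 (0.18) and the checkpoint kinase gene Bub1b at 5.65 and 9.59 (0.67, 0.43 to 0.91).

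By role, all 11 kinase, cyclin and Cks genes were higher in kidney, with a median of 1.16, as were all 9 centromere and chromosome genes at 0.96 and 7 of 8 spindle and motor genes at 0.88. The 3 histone genes were all higher, 2 at least 2-fold, with a median of 1.56 (1.47 to 1.66), and Hist1h2ae went from 39.3 to 157 CPM, 3.99-fold (3.75 to 4.25). Hist1h1b, a linker histone gene, went from 34.1 to 103 CPM, 3.02-fold. Outside the cycling clusters the G2/M median was still 0.60, with 28 of 30 genes higher in kidney. There, kidney cluster 12, whose myeloid and neutrophil genes were raised, was the highest for Pclaf at 82.8 CPM and for Ube2c at 79.0 CPM.

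The direction turned where the cycling cluster was left out of the kidney but not of the spleen. Where the clusters with raised genes of other cell types were left out, the kidney lost cluster 11, for its red cell genes, while 28W spleen kept cluster 6, and the G2/M median became -1.56. With cluster 11 kept and the other such clusters left out it was 1.23, with 30 of 30 genes higher.

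Over whole libraries S phase genes differed less between the organs than G2/M genes, while without the cycling clusters the medians were 0.92 and 0.60, the other order. Kidney cluster 1, with 18.6% of the S phase UMIs of its library, was then among the cells compared, and 28W spleen showed no such cluster. Over whole libraries the S phase median log2 ratio was 0.21 (0.12 to 0.31). There 19 of 22 S phase genes were higher in kidney and 1, Pclaf, was at least 2-fold higher. Of 13189 genes tested 8374 were higher in kidney and 8.77% at least 2-fold higher, so nothing is read from the count of 1. In UMIs per cell, the S phase median was -0.022 and 9 of 22 were higher, so the direction of the set rested on the scale. Kidney cells held fewer UMIs. Pclaf was at 84.9 CPM in spleen and 185 in kidney, 2.18-fold higher (2.08 to 2.28). Rrm2 was at 47.0 and 91.9, 1.96-fold higher, and Tyms at 38.7 and 73.2, 1.89-fold higher. The lowest were Mcm3 at 62.4 and 56.6 (log2 -0.14, -0.23 to -0.046), Mcm4 at 71.3 and 68.1 (-0.066) and Mcm7 at 54.99 and 53.4 (-0.041), and the intervals of Mcm4 and Mcm7 took in 0. The fork and nucleotide genes were thus higher in kidney, 8 of 8 with a median of 0.58. The licensing genes spread around 0, 7 of 10 higher with a median of 0.094, and that share was near the share of all genes.

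Other genes of the cycle, listed by role and not by how they moved, gave a smaller difference between organs. Of 45 such genes 33 were higher in 28W kidney than in 28W spleen, 7 at least 2-fold, 12 were lower and 1 at least 2-fold lower, with a median of 0.31. Of 13189 genes tested 8374 were higher in kidney, 8.77% at least 2-fold higher and 1.23% at least 2-fold lower, with a median of 0.11. The 7 at least 2-fold higher were Ccnd1 (cyclin D1), the inhibitor genes Cdkn1a, Cdkn2a and Cdkn2c, the repressor genes E2f7 and E2f8, and Foxm1. Foxm1 is a driver of G2/M genes. In kidney cycling cluster 11, Ccnd1 and Cdkn1a were at 0.24 and 21.5 CPM, below their 7.22 and 22.1 over the kidney library. The others of the 7 were above their library level there. Cdkn1a, the p21 gene, was at 0.32, 2.78 and 22.1 CPM in the same order of libraries, a rise at each step. Foxm1 was at 3.14, 3.72 and 8.52 CPM, and E2f8 at 3.66, 3.09 and 9.19. The gene lower by 2-fold was Klf2, a factor that holds T cells in quiescence, at 746, 1133 and 323 CPM. Of 44 such genes tested between the spleens, 22 were higher and 22 lower at 28 weeks and 1, Cdkn1a, was at least 2-fold higher. Of 12412 genes tested there 4664 were higher and 7748 lower, and 1.84% were at least 2-fold higher, so nothing is read from the count of 1. Myc, a driver of growth and entry into the cycle, was at 153, 79.3 and 42.1 CPM.

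The sets moved together across clusters, with a Pearson correlation of 0.90 between the mean log2 (CPM + 1) of the S phase and of the G2/M genes over the 33 clusters, which share libraries and depth. Among 8778 other genes with at least 500 UMIs, the nearest to the S phase mean were Fignl1 (r = 0.96), which acts in recombination repair, the histone chaperone gene Asf1b (0.95) and the flap endonuclease gene Fen1 (0.95). Nearest to the G2/M mean were Cep55 (0.96), which acts at the last cut between daughter cells, Hmmr (0.95), a spindle protein gene, and Esco2 (0.95), which acts on cohesin. Next for S phase, from 0.93 down to 0.92, came genes that include Gmnn, Smc2, Mybl2, Lmnb1 and Spc24. The next 7 for G2/M, from 0.94 down to 0.92, were Nuf2, Cdca2, Shcbp1, Pbk, Ska1, Ckap2l and Tacc3.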

How the data were processed

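Sorted T cells of the 3 groups were profiled with the 10x Genomics 5′ chemistry, 4 labelled samples a group pooled in 1 table. The submitters' processing notes name Cell Ranger 2.1.1, R 3.6.1 and GRCm38. The authors deposited, per library, the cluster of every barcode and a score for each gene in each cluster, its mean UMI count scaled to the median cell. The authors' log2 fold changes and adjusted p-values stand in the same tables and were not used.

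Each column held whole multiples of 1 step, which gave back whole UMIs for 100% of values (tolerance 0.001). UMIs were summed and expressed per 1000000 (CPM). Log2 ratios took 1 CPM as pseudocount between libraries and 10 CPM between clusters, which understates the change of low genes, and genes with at least 20 UMIs over the pair were counted as tested. A call was a log2 ratio of at least 1 or at most -1. With 1 library a group nothing was tested for significance. A cluster had raised markers where a cell type's summed markers were at least 5 times the library's and at least 3 of its markers were above it.

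The 55 genes, the other lists and the tests were chosen with earlier results of these data known. All 55 were described by role, with full values for the highest 3 and lowest 3 log2 ratios of the S phase and G2/M sets in each comparison. The genes most alike were the 10 with the highest Pearson correlation to each set's mean. Some of those for the S phase set are not reported here. Alternatives covered pseudocount, scaling, UMIs per cell, authors' cluster means averaged over cells, clusters left out and genes left out. Doublets, cell filters and the annotation release behind the tables are not given in the sources used here. Coordinates and lengths are those of GENCODE M21 and promoters those of RefSeq (GRCm38.p6). The scripts were tested on simulated data. Python 3.11.15, numpy 2.4.6, pandas 2.3.3, scipy 1.17.1 and matplotlib 3.10.9 were used.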

Additional observations from a re-analysis of the deposited data

How the results depend on the processing

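No paired analysis was possible because each table pools its 4 samples, and for the same reason no sample could be left out. The S phase median between the spleens (-0.044) was 0.054 when scaled by the median gene ratio. The G2/M median between the organs (1.03) was 0.80 with 10 CPM added, 0.87 over a total that left out ribosomal protein, mitochondrial and T cell receptor genes, 0.80 in UMIs per cell and 0.68 from the authors' cluster means averaged over cells. The S phase median between the organs (0.21) was 0.035 over that reduced total and -0.022 in UMIs per cell.

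Leaving out the cluster with the highest Mki67 level gave -0.41 (S phase) and -1.24 (G2/M) between the organs. By construction this took the low-RNA clusters from the spleens but the cycling cluster from the kidney. Leaving out the clusters with raised genes of other cell types gave -0.32 and -1.56, since kidney cluster 11 went with them and 28W spleen cluster 6 did not. The genes named turned with the sets under these alternatives, in that order: Tyms to -0.36 and -0.33, Rrm2 to -1.83 and -1.98, Pclaf to -1.77 and -1.93, Bub1b to -1.66 and -2.38, Cenpf to -1.33 and -2.53, Ccna2 to -2.10 and -3.001, Ube2c to -1.74 and -2.83, and Tuba1b to -1.24 and -1.45. Tuba1b was also at -0.055 in UMIs per cell and -0.11 from averaged means.

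Alternatives chosen after seeing the data gave the following. Without the 3 cycling clusters, the S phase and G2/M medians were -0.90 and -0.26 between the spleens and 0.92 and 0.60 between the organs, with Tk1 at -0.95 between the spleens and Mcm3 at 0.47 and Tuba1b at -0.13 between the organs. Without raised clusters but with kidney cluster 11, they were 0.38 and 1.23 between the organs, with Mcm3 at 0.026. Without the low-RNA clusters each of the 4 medians moved by less than the range given beside it. Of 252 values of named genes under all alternatives, 139 moved by less than their interval, 91 by more in the same direction and 22 changed sign. Depth was 29937384 UMIs or more a library, so 3 UMIs, the floor used, were at most 0.1002 CPM.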
